A study of Mus musculus with 14 samples.

Results

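Guanylate-binding proteins (GBPs) and immunity-related GTPases (IRGs) are interferon-induced enzymes that bind and hydrolyse GTP. This report describes 10 of their genes in mouse spleen, namely Gbp2, Gbp3, Gbp5, Gbp6, Gbp7 and Gbp9 of the GBP family and Irgm1, Irgm2, Igtp and Iigp1 of the IRG family. The 10 were taken by name, as every array probe whose accession RefSeq pairs with one of these symbols. No measured value entered that rule, but the 10 were chosen with earlier results of these data known. They were 10 of 24908 genes tested and were read by 12 probes, 3 of them for Irgm1. Each of the 12 probes was well above background on all 14 arrays, so no gene was lost to the filter on dim probes.

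The spleens were taken 2 weeks after an injection into the skin of chicken collagen type II (CII) in Freund's complete adjuvant (CFA). This is the priming step of collagen-induced arthritis, which the study induced in mice aged 10 to 14 weeks. WT mice of strain C57BL/6 (n = 7) were compared with Stinggt/gt mice (n = 7), also written Tmem173gt and known as golden ticket. These carry a chemically induced mutation of the DNA-sensing adaptor STING on a C57BL/6 background. Every mouse received CFA and CII, so no unimmunised spleen was measured here. The labels name the tissue as spleen, and the study describes its material as isolated splenocytes, which its methods obtain with a strainer and a lysis step for red cells. Each mouse was read on 1 one-colour array, and p-values below measure the spread between these mice. The WT mice were bought and the Stinggt/gt mice came from another colony, so genotype and source of the mice cannot be told apart. The question was whether loss of STING function changed the level of these transcripts after immunisation.

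Both families are known for defence inside the cell, chiefly downstream of interferon-gamma. That cytokine binds the receptor chains Ifngr1 and Ifngr2, and the kinases Jak1 and Jak2 then pass the signal on to genes that carry the sequence element GAS, Irf1 among them. Irf1 in turn binds the element ISRE, which also serves type I interferon. GBPs gather on the vacuoles of parasites and on bacteria, and feed the inflammasome. Among IRGs, Iigp1 (also Irga6) is an effector that coats the parasite vacuole, whereas Irgm1, Irgm2 and Igtp (also Irgm3) sit on the cell's own membranes and keep the effectors inactive there. STING itself drives type I interferon after DNA reaches the cytosol.

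In the RefSeq annotation Gbp5, Gbp7, Gbp3 and Gbp2 follow each other in this order on chromosome 3. Gbp9 and Gbp6 lie on chromosome 5, Irgm1, Igtp and Irgm2 on chromosome 11, and Iigp1 apart from the others. Upstream sequence was at hand in RefSeq's build GRCm38.p6 for 7 of the 10 genes, and it is shown because these are the letters that interferon-activated factors read. Each run below ends at the base before the annotated start and is written 5′ to 3′ on the gene's own strand. Capitals mark an ISRE-type match (GAAANNGAAA on either strand, the other strand reading TTTCNNTTTC) or a GAS match (TTCNNNGAA, which reads the same on both strands).
Gbp2, chr3:142620553-142620662, plus strand: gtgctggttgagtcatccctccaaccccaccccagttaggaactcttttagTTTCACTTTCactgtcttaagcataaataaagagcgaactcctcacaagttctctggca
Gbp3, chr3:142559934-142560043, plus strand: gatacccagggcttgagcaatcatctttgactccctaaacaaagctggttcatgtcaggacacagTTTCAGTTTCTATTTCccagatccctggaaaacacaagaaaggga
Gbp5, chr3:142496684-142496933, plus strand: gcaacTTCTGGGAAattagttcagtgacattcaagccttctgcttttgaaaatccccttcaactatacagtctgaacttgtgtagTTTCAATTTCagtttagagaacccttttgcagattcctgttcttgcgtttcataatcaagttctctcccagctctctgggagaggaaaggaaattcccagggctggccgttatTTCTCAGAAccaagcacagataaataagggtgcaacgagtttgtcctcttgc
Gbp7, chr3:142530226-142530335, plus strand: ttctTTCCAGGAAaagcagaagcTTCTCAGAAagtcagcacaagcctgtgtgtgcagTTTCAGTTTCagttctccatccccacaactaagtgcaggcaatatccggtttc
Irgm1, chr11:48871421-48871530, minus strand: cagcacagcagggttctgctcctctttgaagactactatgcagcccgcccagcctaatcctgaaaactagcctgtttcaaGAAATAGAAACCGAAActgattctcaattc
Igtp, chr11:58199446-58199555, plus strand: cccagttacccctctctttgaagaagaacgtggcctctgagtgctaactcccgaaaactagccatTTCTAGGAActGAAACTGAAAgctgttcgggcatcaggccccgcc
Irgm2, chr11:58214867-58214976, plus strand: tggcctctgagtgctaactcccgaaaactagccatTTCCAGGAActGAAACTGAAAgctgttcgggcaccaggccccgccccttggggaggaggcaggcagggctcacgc
All 7 genes held an ISRE-type match in the 250 bases before a start, against 2.98% of the 32851 starts in the table. A GAS match was found in 4 of the 7 (Gbp5, Gbp7, Igtp and Irgm2), against 7.02% of all starts, and the same 4 held both motifs, against 0.332%. In Irgm1 and Gbp3 a pair of ISRE-type matches overlapped. Gbp3 has a further annotated start without any match. The ISRE-type match began at -30 in Irgm1, -34 in Igtp, -45 in Gbp3, -53 in Gbp7, -59 in Gbp2, -64 in Irgm2 and -165 in Gbp5, counted from the annotated start. Igtp and Irgm2 share sequence, with a longest identical run of 38 bases among those printed and of 55 bases, farther upstream, in the 250 searched. A match is a description of the letters, not evidence that a factor was bound.

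Log2 signals below are relative to the 75th percentile of the signals on the same array, so 0 is a probe at that percentile. Levels of different genes come from different probes and are not set against each other. Each array had 30781 to 34400 probes well above background, with the most on WT replicate 7. That array also had the highest 75th percentile of signal, 766, against 562 to 718 on the others. The scanner headers carry 2 scan days. Replicates 1 to 3 of both genotypes were read on scan day 1 (6 arrays) and replicates 4 to 7 on scan day 2 (8 arrays). On scan day 2 the WT and the Stinggt/gt arrays lay on separate slides, so there slide and genotype cannot be told apart. Across all genes, limma with genotype in the model called 38.8% between these days (adjusted p under 0.05). Sting1, the mutated gene, had a log2 signal of 2.35 to 2.85 in WT and 2.45 to 2.77 in Stinggt/gt mice, so the groups overlapped. As the allele is a point mutation, this level does not check the labels. All listed markers of B cells, T cells, macrophages and erythroid cells, and 7 of 8 neutrophil markers, passed the filter on dim probes. Of 4 pancreas markers (Cpa1, Pnlip, Cela2a, Ins2), none was above background on the 6 arrays of scan day 1, while 1 to 4 were on each array of scan day 2. All 4 were so only on WT replicate 4, where Cela2a stood at 8.20 against -6.01 to -0.07 on the other 13 arrays.

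None of the 10 GTPase genes passed the test for a difference between the genotypes. Limma called 0 of 10 at the threshold the study names for its arrays, an unadjusted p under 0.05, where 3.48% of all genes did. After Benjamini-Hochberg adjustment 0 of 10 passed, where 0.00401% did, and the methods' t-test and a Mann-Whitney U test called 0 of 10 as well. With the replicate number as a block 0 of 10 passed an unadjusted p under 0.05, where 1416 of all genes did, against 868 without the block. In number, 6 genes were lower and 4 higher in Stinggt/gt mice, where 45.5% of all genes were lower. The median log2 fold change was -0.03, beside 0.02 over all genes. For all 10 genes the values of the groups overlapped, and groups without overlap were seen for 0.0442% of all genes. RNA came from a mix of spleen cells, in which fewer cells of a type and less RNA per cell cannot be told apart.

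**Figure D1:**
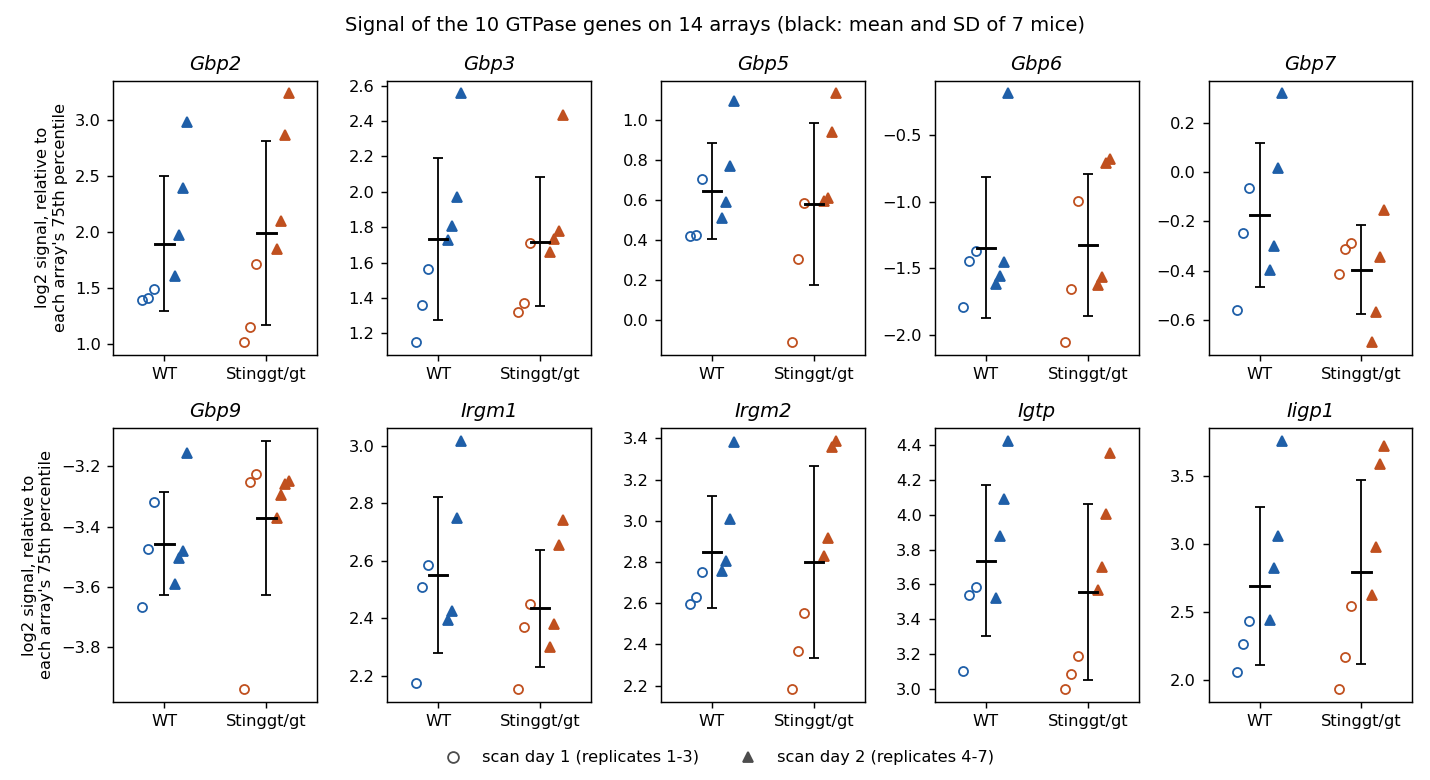
Log2 signal of each of the 10 genes (vertical axis, relative to the array's 75th percentile) in 7 WT and 7 Stinggt/gt mice. Open circles are scan day 1, filled triangles scan day 2, and black bars are the mean and SD of the 7 mice. The groups overlap in every panel, and the vertical scale differs between panels.

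Among the GBPs, Gbp2, which gathers on vacuoles that hold parasites, had the widest spread. Its log2 signal had a lowest value of 1.39, a median of 1.61 and a highest of 2.99 in WT mice, and of 1.02, 1.85 and 3.24 in Stinggt/gt mice. The highest and the lowest mouse of all were both Stinggt/gt, and the groups overlapped along almost their whole length. The mean was 1.90 ± 0.60 (SD, n = 7) in WT and 1.99 ± 0.82 (SD, n = 7) in Stinggt/gt mice. The log2 fold change was thus 0.10, with a standard error of 0.35 (limma, adjusted p = 0.9998; two-sided exact permutation test, p = 0.803). The 95% confidence interval of the fold ran from 0.638 to 1.80, so changes within these bounds are compatible with the values of 7 mice a group.

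Gbp7, which is linked to the assembly of the oxidase that makes superoxide, came closest to the threshold. Its log2 signal ran from -0.56 over a median of -0.25 to 0.32 in WT mice, and from -0.69 over -0.34 to -0.15 in Stinggt/gt mice. All Stinggt/gt mice lay below the 3 highest WT mice, and Stinggt/gt replicates 4 and 6 below the lowest WT mouse. The means of -0.18 ± 0.29 (SD, n = 7) and -0.40 ± 0.18 (SD, n = 7) gave a log2 fold change of -0.22 (standard error 0.13, unadjusted p = 0.119 by limma; two-sided exact permutation test, p = 0.114). Its 95% confidence interval, as a fold, was 0.705 to 1.05. It passed once arrays were weighted and a trend with intensity was fitted, at -0.31 (unadjusted p = 0.0257), where 17.5% of all genes did, and without WT replicate 2 it passed at -0.28 (unadjusted p = 0.0452), where 4.05% did.

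The other GBPs showed smaller differences. Gbp5, which promotes inflammasome assembly, ran from 0.42 over 0.59 to 1.098 in WT mice and from -0.11 over 0.60 to 1.13 in Stinggt/gt mice. The medians were almost equal, and a single low mouse, Stinggt/gt replicate 1, stretched the range of its group. The log2 fold change of Gbp5 was -0.07 (standard error 0.17). Gbp3 gave -0.02 (standard error 0.21), from 1.73 ± 0.46 (SD, n = 7) in WT and 1.72 ± 0.36 (SD, n = 7) in Stinggt/gt mice. Gbp6 gave 0.02 (standard error 0.26) and Gbp9 0.09 (standard error 0.12), both GBPs of the chromosome 5 group. Each of these differences was smaller than its standard error.

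Of the IRGs, the regulators Irgm1, Irgm2 and Igtp were lower and the effector Iigp1 was higher in Stinggt/gt mice, none past the threshold. Igtp ran from 3.10 over 3.59 to 4.43 in WT mice and from 2.998 over 3.57 to 4.36 in Stinggt/gt mice, and these ranges cover each other almost wholly. Its log2 fold change was -0.18 (standard error 0.23; two-sided exact permutation test, p = 0.494). Irgm1, whose loss is known to impair blood stem cells and autophagy, gave -0.12 (standard error 0.13; two-sided exact permutation test, p = 0.382). Irgm2 gave -0.05 (standard error 0.19).
Iigp1 ran from 2.06 over 2.44 to 3.76 in WT mice and from 1.93 over 2.63 to 3.72 in Stinggt/gt mice. It gave 0.10 (standard error 0.31; two-sided exact permutation test, p = 0.765), with a 95% confidence interval of the fold from 0.682 to 1.69. The narrowest interval of the 10 on the log2 scale was that of Gbp9, as a fold 0.885 to 1.27. Its probe was dim, with a mean log2 signal of -3.46 in WT and -3.37 in Stinggt/gt mice. Whether a dim signal narrowed the spread was not tested.

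Irgm1 was read by 3 probes, and these did not differ in direction. The probe used above, A_51_P262171, gave -0.12, and A_55_P1981479 and A_55_P2498142 gave -0.13 and -0.18. None passed an unadjusted p under 0.05 among the 31766 probes tested. The probes differed in another respect. On A_55_P1981479 the arrays of scan day 1 ran from -1.01 to -0.46 and those of scan day 2 from -0.21 to 0.79, without overlap, a mean difference of 0.88. The differences on the other probes were 0.21 and 0.26, with overlap. Probe sequences were not at hand, so which transcript form or related gene each probe could read was not tested.

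The replicate sets were also taken apart, since replicates 1 to 3 and 4 to 7 were scanned on different days. Within replicates 1 to 3 (3 against 3), Stinggt/gt mice had lower levels of 8 of the 10 genes, the median being -0.07 on the log2 scale and the range -0.32 (Igtp) to 0.11 (Gbp3). None passed an unadjusted p under 0.05, where 3.86% of all genes did. Within replicates 4 to 7 (4 against 4), 6 of the 10 were higher, with a median of 0.07 and a range of -0.35 (Gbp7) to 0.27 (Gbp2). Over all genes the median was 0.02 in each set, and the share of genes lower was not counted. None passed here either, where 23.3% of all genes did. The sign differed between the sets for Gbp2, Gbp3, Gbp5, Gbp6, Irgm2 and Iigp1. A test of the difference itself, the interaction of genotype and replicate set, called 0 of 10 at an unadjusted p under 0.05, where 18% of all genes passed, and 0 of 10 after adjustment, where 0.767% did.

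**Figure D2:**
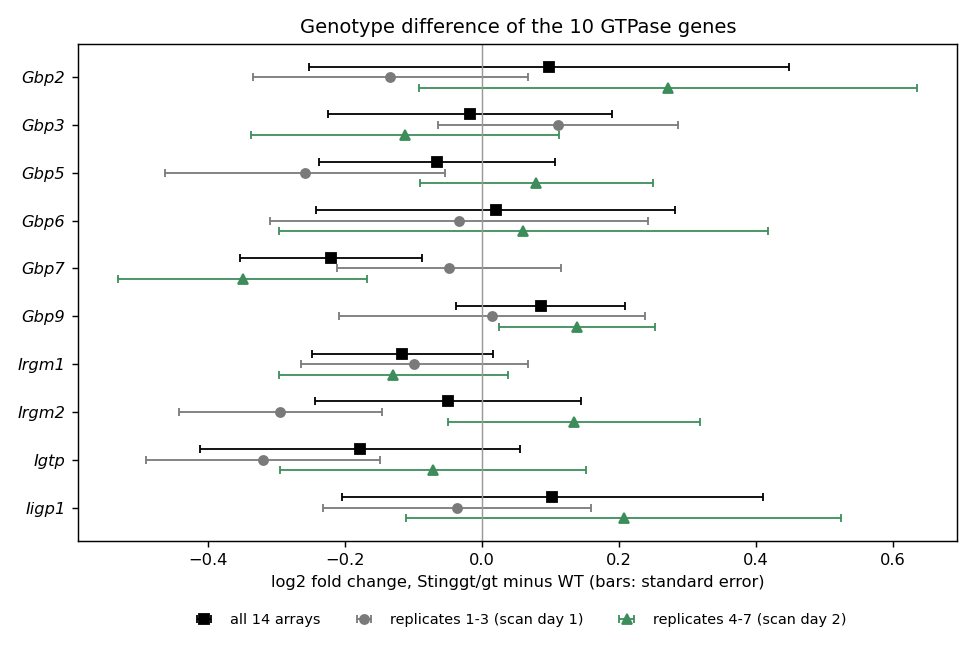
Log2 fold change of Stinggt/gt against WT mice (horizontal axis) for each gene, over all 14 arrays (squares), replicates 1 to 3 (circles) and replicates 4 to 7 (triangles). Bars are standard errors. The values over all arrays lie between -0.22 and 0.10, and Irgm2 shows the largest gap between the sets, at 0.43.

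Irgm2 had the largest such gap. In replicates 1 to 3 it stood at 2.75, 2.60 and 2.63 in WT mice and at 2.18, 2.37 and 2.55 in Stinggt/gt mice. All 3 Stinggt/gt values were below all 3 WT values. The share of all genes separated in this way within replicates 1 to 3 was not counted. In replicates 4 to 7 it stood at 2.76, 2.81, 3.01 and 3.38 in WT mice and at 2.83, 3.36, 2.92 and 3.39 in Stinggt/gt mice, which overlapped. The log2 fold changes were -0.29 (standard error 0.15) and 0.13 (standard error 0.18), and their difference of 0.43 (standard error 0.25) did not pass (adjusted p = 0.395 by limma). When scan day was added to the model, 0 of the 10 genes passed an unadjusted p under 0.05 for genotype, where 7.27% of all genes did. With slide as a fixed block, which rests on the 5 arrays of the slides that held both genotypes, all 10 genes were lower in Stinggt/gt mice and none passed. The share of all genes that were lower under this block was not counted.

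The larger difference lay between the scan days. All 10 genes were higher on scan day 2, with genotype in the model, and 6 of them passed an adjusted p under 0.05 by limma, where 17.1% of all genes passed in that direction and 38.8% in either. The 6 were Gbp2, Iigp1, Igtp, Gbp3, Irgm2 and Gbp5. The median over the 10 genes was 0.47 on the log2 scale, beside -0.01 over all genes. Scan day cannot be told apart from the set of mice, their immunisation or the labelling and hybridisation that may have gone with it.

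Gbp2 rose most, by 1.01 on the log2 scale (standard error 0.24, adjusted p = 0.00456 by limma), a fold of 2.02. In WT mice it stood at 1.49, 1.41 and 1.39 on scan day 1 and at 1.61, 1.97, 2.40 and 2.99 on scan day 2. In Stinggt/gt mice it stood at 1.02, 1.16 and 1.72, then at 1.85, 3.24, 2.10 and 2.87. Within each genotype every mouse of scan day 2 was above every mouse of scan day 1. Iigp1 rose by 0.89 (standard error 0.21, adjusted p = 0.00428 by limma), from 2.43, 2.06 and 2.26 to 2.44, 2.83, 3.06 and 3.76 in WT mice, and from 1.93, 2.17 and 2.55 to 2.63, 3.72, 2.98 and 3.59 in Stinggt/gt mice. Here too no mouse of scan day 1 reached a mouse of scan day 2 with the same genotype. The share of all genes whose scan days were separated within each genotype was not counted.
Igtp rose by 0.69 (standard error 0.15, adjusted p = 0.00284 by limma). The scan days overlapped for it among WT mice, where replicate 4 stood at 3.52 and replicate 3 at 3.59, and did not overlap among Stinggt/gt mice. Irgm2 rose by 0.54 (standard error 0.14, adjusted p = 0.00586) and was the one member whose scan days did not overlap over both genotypes together, by a margin of 2.75 against 2.76. Scan days did not overlap for 15.7% of all genes. Gbp3 rose by 0.54 (standard error 0.16, adjusted p = 0.0131) and Gbp5 by 0.39 (standard error 0.14, adjusted p = 0.0387).
The other 4 genes did not pass, with differences of 0.38 (standard error 0.25) for Gbp6, 0.21 (0.12) for Irgm1, 0.12 (0.12) for Gbp9 and 0.05 (0.13) for Gbp7. Without WT replicate 4, the array with all 4 pancreas markers above background, 6 GTPases still passed. The call of Gbp5 was lost, leaving 5, when WT replicate 1, 3, 5 or 7 or Stinggt/gt replicate 1, 2, 5 or 7 was left out, and also with slide as a random block or without scaling between arrays.

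The deposited table of log2 values gave another result for the scan days. On it all 10 genes were again higher on scan day 2, but by 0.07 to 0.38, with a median of 0.17, and 0 of 10 passed an adjusted or an unadjusted p under 0.05. Over all genes 0% passed after adjustment and 1.4% at an unadjusted p under 0.05, against 47.3% in the scanner signal. The median size of the difference was 0.07 on that table and 0.27 in the scanner signal. How the table's values were adjusted is not given in the sources used here. The genotype differences of the 10 genes had the same sign in both sources, from -0.25 (Gbp7) to 0.08 (Iigp1 and Gbp2) on the table.

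**Figure D3:**
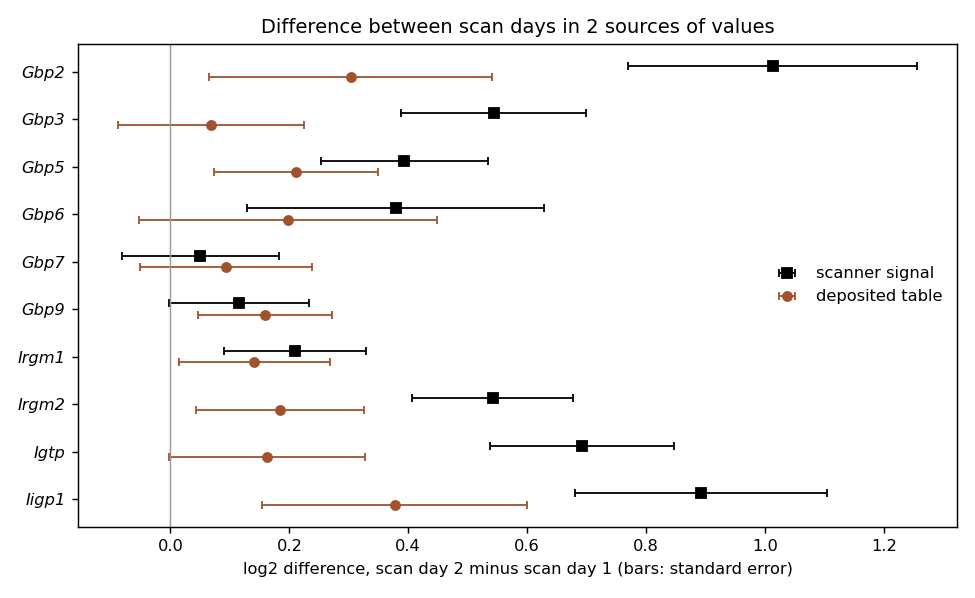
Difference between scan day 2 and scan day 1 on the log2 scale (horizontal axis) for each gene, with genotype in the model, in the scanner signal (squares) and in the deposited table (circles). Bars are standard errors. All values lie above 0, from 0.05 to 1.01 in the scanner signal and from 0.07 to 0.38 in the table.

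The genes moved together from mouse to mouse. WT replicate 7 had the highest value of all 14 arrays for 7 of the 10 genes and was among the 3 highest for all 10. Stinggt/gt replicates 5 and 7 were among the 3 highest for 7 genes each. At the other end, Stinggt/gt replicate 1 had the lowest value for 8 genes and was among the 3 lowest for 9. The mean log2 signal of the 10 genes ran from 0.74 over a median of 0.996 to 1.82 in WT mice, and from 0.52 over 1.02 to 1.65 in Stinggt/gt mice. The spread between mice of a genotype, 0.36 in WT and 0.40 in Stinggt/gt mice (SD, n = 7), was larger than the difference between the genotype means of 1.11 and 1.08. On the deposited table WT replicate 7 was among the 3 highest for all 10 genes and the highest for 8, and Stinggt/gt replicate 1 was the lowest for 6.

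**Figure D4:**
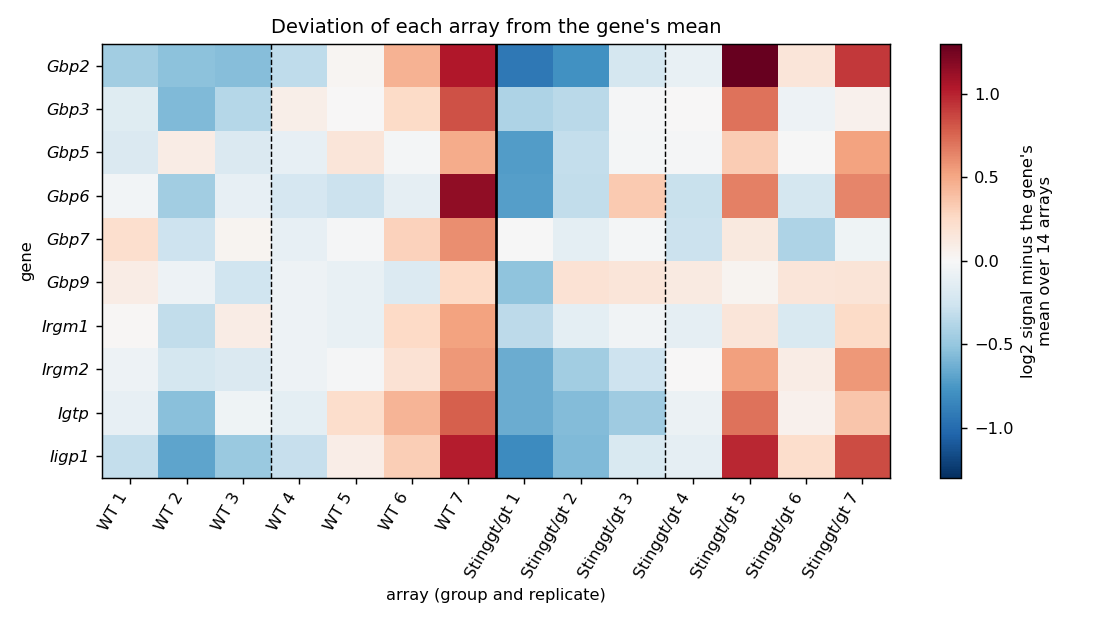
Log2 signal of each gene (rows) on each array (columns, grouped by genotype, with dashed lines between scan days) minus the gene's mean over 14 arrays. Red is above and blue below that mean. WT replicate 7 is above the mean for all 10 genes and Stinggt/gt replicate 1 below it for all 10.

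How far a gene followed the others was measured after the mean of its genotype and scan day was taken away from each array. The Pearson correlation with the mean of the other 9 genes over the 14 arrays was highest for Irgm2 and Iigp1 (r = 0.98 for each) and lowest for Gbp9 (r = 0.44). It lay between 0.74 (Gbp5) and 0.95 (Gbp6) for the rest. Without the 2 arrays farthest from the median, which for the mean of the 10 genes were WT replicate 7 and Stinggt/gt replicate 5, it ran from 0.39 (Gbp9) to 0.97 (Irgm2). All points share an array and its scaling, and the values are a description.
The genes also differed in how much they varied. Gbp2 had an SD within genotype of 0.72, larger than that of 94.2% of all genes, and Iigp1 one of 0.63, larger than 90.9%. Gbp7, Irgm1 and Gbp9, at 0.24, 0.24 and 0.22, were below the median of all genes, 0.31. The other members lay between 0.33 (Gbp5) and 0.53 (Gbp6). With the scan day taken out as well, Gbp7 stood at 0.25, above the median of 0.23, while Gbp9 and Irgm1 stayed below it, and Gbp6, at 0.54, was above 94.8% of all genes.

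Outside the 10, the genes most like their mean over the 14 arrays, measured in the same way, were Gm12250 (r = 0.97, Spearman's rho 0.93), Gm4951 (r = 0.97, rho 0.96), Psmb9 (r = 0.92, rho 0.91), Ss18l1 (r = 0.91, rho 0.86) and Tapbpl (r = 0.90, rho 0.83). Gm12250 is listed as Irgb10, an IRG effector, and Gm4951 is a further IRG. Psmb9 is a subunit of the immunoproteasome and Tapbpl a tapasin-related factor of class I antigen presentation. None of the 5 passed for genotype (adjusted p = 0.9998 by limma for each). The r of these genes without the farthest 2 arrays was 0.79 to 0.96.

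Other GTPases of the family were listed by name, and 11 of 22 could be tested. For genotype 4 were higher and 7 lower in Stinggt/gt mice, where 45.5% of all genes were lower. The median was -0.08, and 0 passed an unadjusted p under 0.05. Gbp4 gave 0.08 (standard error 0.22), Gbp8 -0.16 (0.26) and Gbp10 0.07 (0.15), while Ifi47, an IRG, gave 0.07 (0.15). Gbp2b was above background on 2 WT and 3 Stinggt/gt arrays and was not tested. No probe was paired with Gbp11 or Tgtp1. Between the scan days 2 of the 11 rose and 1 fell at an adjusted p under 0.05, close to the 17.1% and 21.6% of all genes that did, or below them. WT replicate 7 was the highest array of this list too, 0.57 above the list's mean.

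Upstream of the GTPases, 15 of 16 listed signalling genes were tested. For genotype 6 were higher and 9 lower, where 45.5% of all genes were lower, and the median was -0.05. Of the 15, 1 passed an unadjusted p under 0.05, where 3.48% of all genes did. This was Ifnar1, a chain of the type I interferon receptor, at a log2 fold change of -0.24 (standard error 0.10, unadjusted p = 0.0251, adjusted p = 0.9998 by limma). Along the interferon-gamma chain, Ifng gave -0.08 (standard error 0.26), Ifngr1 0.20 (0.11) and Ifngr2 0.10 (0.20). Jak1 gave -0.12 (0.09), Jak2 -0.22 (0.17), Irf1 0.10 (0.18) and Irf8 -0.04 (0.14). None of these 7 passed.

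Between the scan days 8 of these 15 genes rose and none fell at an adjusted p under 0.05 by limma, where 17.1% of all genes rose. Ifng, the cytokine, rose by 0.72 (standard error 0.19, adjusted p = 0.00908), Ifngr2 by 0.62 (standard error 0.13) and Jak2 by 0.56 (standard error 0.10). Irf1 rose by 0.46 (standard error 0.13, adjusted p = 0.0131) and Irf8 by 0.38 (standard error 0.09). Ifngr1 did not pass at -0.10 (standard error 0.10), nor did Jak1 at 0.13 (standard error 0.08).

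**Figure D5:**
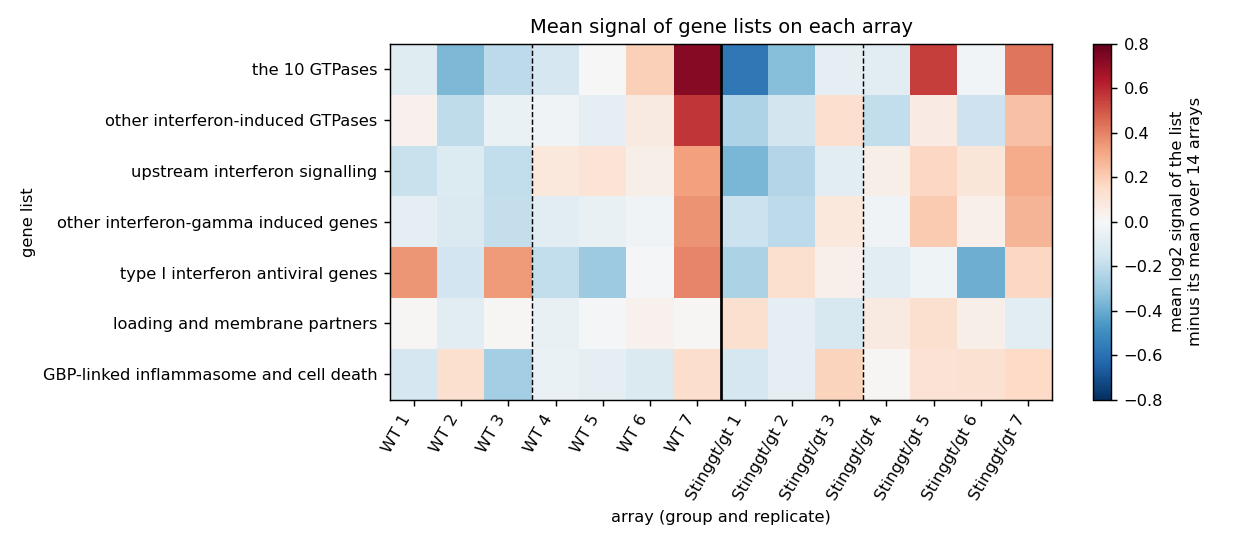
Mean log2 signal of each gene list (rows) on each array (columns) minus the list's mean over 14 arrays. Columns are grouped by genotype, with dashed lines between scan days, and red is above the mean. WT replicate 7 is above the mean by 0.73 for the 10 GTPases, 0.57 for other GTPases and 0.36 for other interferon-gamma induced genes.

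The response genes of the 2 interferon types had medians of opposite sign between the scan days. Of 16 other interferon-gamma induced genes tested, 7 rose and 2 fell on scan day 2, with a median of 0.29. Those that rose included Cxcl9 (0.61), a chemokine, Cd274 (0.66), which encodes PD-L1, and Psmb8 (0.44) of the immunoproteasome. Those that fell were Nos2 (-1.1), the inducible nitric oxide synthase, and H2-Ab1 (-0.24). H2-Aa, the other MHC class II chain on the list, rose by 0.63. Of 21 type I interferon antiviral genes 5 rose and 7 fell, with a median of -0.37. Of all genes 17.1% rose and 21.6% fell. Isg15 fell by 0.55 and Usp18 by 0.46, whereas Ifit2 rose by 0.55. For genotype no gene of either list passed an unadjusted p under 0.05. The type I list had 17 of 21 genes lower in Stinggt/gt mice and a median of -0.13, and the interferon-gamma list 4 of 16 lower and a median of 0.06. Over all genes 45.5% were lower and the median was 0.02.

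Downstream, 19 genes that lipidate GBPs or load GTPases onto membranes were tested, such as Atg5 and Fnta, and 0 passed for genotype, with a median of 0.06. Of 7 genes of the GBP-linked inflammasome 1 passed an unadjusted p under 0.05, where 3.48% of all genes did. This was Pycard, which encodes the adaptor ASC, at 0.22 (standard error 0.10, unadjusted p = 0.0407, adjusted p = 0.9998 by limma). Its log2 signal was 2.90 ± 0.12 (SD, n = 7) in WT and 3.11 ± 0.17 (SD, n = 7) in Stinggt/gt mice. Nlrp3 and Irgb10 were not tested under these symbols.

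Markers of some cell types moved with the scan days as well. On scan day 2 all 7 neutrophil markers and all 7 erythroid markers tested were lower, 4 and 3 of them at an adjusted p under 0.05, where 21.6% of all genes fell. The mean neutrophil marker signal was 5.97 to 6.67 on scan day 1 and 5.37 to 6.25 on scan day 2. NK cell markers had 4 of 6 higher and 1 lower at that threshold, and plasma cell markers 4 of 6 higher, where 17.1% of all genes rose. Of these plasma cell markers, Xbp1 and Irf4 were higher on scan day 2 in both genotypes, but Sdc1 and Tnfrsf17 only in Stinggt/gt mice. Sdc1 ran from -2.70 to -2.21, then from -2.54 to -2.37 in WT mice. In Stinggt/gt mice it ran from -2.72 to -2.63, then from -1.80 to -1.36. The mean NK cell marker signal ran from -0.94 to -0.26 on scan day 1 and from -0.71 to 0.33 on scan day 2. At the same threshold 2 of 8 B cell markers, 2 of 8 T cell markers and 2 of 7 dendritic cell markers rose. In each of these lists 1 fell. Of 10 macrophage and monocyte markers 0 rose and 1 fell. The pancreas marker Cela2a stood at -0.07 on WT replicate 7 and at -0.14 on Stinggt/gt replicate 7, above all arrays but WT replicate 4. On Stinggt/gt replicate 5, high for the GTPases too, it stood at -4.39. The part of these cells and tissues in the GTPase levels was not tested. For genotype, 7 of 8 B cell markers were lower in Stinggt/gt mice, where 45.5% of all genes were lower. None passed an unadjusted p under 0.05. Of 7 erythroid markers 6 were lower and 1 higher, with a median of -0.30. Among them 1 of the lower passed that threshold, where 3.48% of all genes did, and 0 passed after adjustment. All 6 NK cell markers were higher, with a median of 0.18 beside 0.02 over all genes, and none passed.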

How the data were processed

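Total RNA of spleen cells of 14 mice was amplified, labelled with Cy3 and hybridised to one-colour Agilent arrays of 62976 spots. Per the file headers and the labels, the authors extracted the spots with Feature Extraction 11.0.1.1, which gave a background-corrected intensity (gProcessedSignal), raw spot and local background intensities, and flags for each spot. The deposited table of the whole series holds log2 values made by the authors from the same arrays. Its scaling and centring are not given in the sources used here, and its columns correlated with the log2 scanner signal at r = 0.9968 to 0.9986. No sample or column was left out.

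Control spots and spots flagged as outliers were left out, spots of a probe were averaged, and log2 intensity was taken minus the array's 75th percentile. A probe entered if 7 or more of the 14 arrays showed it well above background, and the probe of highest mean stood for its gene. Accessions of the probes were paired with symbols through RefSeq's table for GRCm38.p6, which gave a symbol to 32989 of 56605 probes. Of the 24908 genes tested, 14727 had a symbol and the others kept their accession. Stinggt/gt and WT arrays were compared with limma 3.58.1 in R 4.3.3 (two-sided, Benjamini-Hochberg over all genes tested) and, for the 10 GTPases, by an exact permutation test over all 3432 splits. The script was tested on simulated data. Scan days were compared in the same way with genotype in the model, a comparison added after the data were seen. The number of arrays limits the precision.

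Samples were grouped by their titles. No label pairs the mice by replicate number. Arrays of the same number deviated together across genes (r = 0.155 to 0.533), so the block by number was given beside the main result, and with the means of each scan day removed r was -0.407 to 0.249, over 0.1 for 4 of the 7 numbers. The 10 GTPases, the gene lists and the tests were chosen with earlier results of these data known. Named were the 10 GTPases, the interferon-gamma chain, family neighbours and the 5 genes most like the mean of the 10. List genes past an unadjusted p under 0.05 for genotype were named too, except among the cell type markers. List genes named for the scan days were chosen after their values were seen, and some list genes are not reported here. Alternatives covered scaling, background correction (normexp with offset 50 on the median spot signal, as the mean signal was not used here), the deposited table, filters, flags, probes of a gene, the test, replicate block, scan day, slide, replicate sets and each array left out.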

Additional observations from a re-analysis of the deposited data

Results flagged for a closer look

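In 3 of the 20 groups of 7 mice that were checked, 1 mouse stood apart from the other 6 by more than Dixon's 95% limit, where chance gives about 1 in 20 groups. Gbp3 stood at 2.435 on Stinggt/gt replicate 5, and its next highest Stinggt/gt mouse at 1.78. Gbp6 stood at -0.1871 on WT replicate 7, above the other WT mice, which ran from -1.79 to -1.37. Gbp9 stood at -3.94 on Stinggt/gt replicate 1, below the other Stinggt/gt mice, which ran from -3.37 to -3.22. WT replicate 7 was the highest array for 7 of the 10 genes and Stinggt/gt replicate 1 the lowest for 8, whereas Stinggt/gt replicate 5 was the highest for 1. Without them the log2 fold change was -0.14 for Gbp3, 0.21 for Gbp6 and 0.18 for Gbp9, none past an unadjusted p under 0.05.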

How the results depend on the processing

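The GTPases past an unadjusted p under 0.05 for genotype numbered 0 under 17 of the 18 alternatives other than leaving out an array, and 1 with array weights and an intensity trend (Gbp7). With arrays left out in turn they numbered 0 to 1, the 1 being Gbp7 without WT replicate 2, and the median log2 fold change of the 10 ran from -0.13 to 0.08. All genes past that threshold numbered 868, and 1928 on the deposited table, 4360 with array weights, 1416 with a replicate block, 1812 with scan day as a term, 445 with slide as a random block, 5805 in replicates 4 to 7 alone, and 496 to 1967 with arrays left out. With the replicate block 0 GTPases passed, so the pairing changed no call among them. By the methods' t-test 997 genes passed and 1 after adjustment, and by the Mann-Whitney U test 715 and 0.

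Signs turned as follows, none past the threshold. Gbp6 was -0.034 without scaling and -0.012 with array weights, and Irgm2 0.011 with array weights. With slide as a random block Gbp2 was -0.17, Gbp6 -0.14 and Iigp1 -0.10, and with slide as a fixed block -0.35, -0.36 and -0.22, with Gbp9 at -0.12. Replicates 1 to 3 alone gave Gbp2 -0.13, Gbp3 0.11, Gbp6 -0.034 and Iigp1 -0.036, and replicates 4 to 7 alone Gbp5 0.080 and Irgm2 0.13. With arrays left out Gbp2 ran from -0.11 to 0.28, Gbp3 from -0.14 to 0.12, Gbp5 from -0.16 to 0.050, Gbp6 from -0.088 to 0.21, Irgm2 from -0.15 to 0.053 and Iigp1 from -0.052 to 0.28.

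Genes whose genotype effect differed between the replicate sets numbered 191, 68 under median centring, 110 on the deposited table and 0 to 752 with arrays left out. That difference turned for Irgm1 under median centring (0.085), where Irgm2 passed at an unadjusted p under 0.05 (0.54), and it ran from -0.15 to 0.43 for Gbp6, -0.11 to 0.25 for Gbp9 and -0.12 to 0.094 for Irgm1 with arrays left out. GTPases higher on scan day 2 numbered 6, 0 on the deposited table and 5 to 6 with arrays left out, where the difference of Gbp7 ran from -0.027 to 0.099. Median centring moved the median scan day difference of all genes to 0.17 and of the GTPases to 0.65, with 8 past the threshold. These scan day settings were chosen after seeing the data. The causes were not tested.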
